A study of Mus musculus with 40 samples.

Results

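Brain cells take up, store and release iron through a small set of proteins, and 10 genes of that set were followed here: Tfrc, Trf and Slc11a2 for uptake, Fth1 and Ftl1 for storage, Slc40a1 and Cp for export, and Hamp, Aco1 and Ireb2 for regulation. A probe was taken when the gene name in the array files equalled one of these symbols. That rule found 15 of the 55589 probes kept, for 10 of 36362 genes: 3 probes of Tfrc, 2 each of Trf, Slc11a2 and Cp, and 1 of each other gene. The list was drawn up with results of these arrays already known, and Tfrc was chosen by its cortical levels in young wild-type mice, in aged wild-type mice fed with normal diet and in Ttpa-/- mice fed with deficient diet. Cortical Tfrc values that involve those 3 groups are therefore given as a description without a test.

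The study asked how ageing and a long-lasting lack of vitamin E alter gene expression in the mouse brain. Ttpa encodes the α-tocopherol transfer protein, which the body needs to retain α-tocopherol, the main form of vitamin E. All mice were on the C57Bl/6 background. Cortex and cerebellum were profiled in 5 kinds of mice with 4 arrays for each kind and region, 40 arrays in all. The groups were wild-type mice of 2 months on normal diet (36 mg of α-tocopherol per kg), called young, and 4 groups of 29 months: wild-type on normal diet, wild-type on vitamin E deficient diet, Ttpa-/- on vitamin E deficient diet, and Ttpa-/- on vitamin E supplemented diet (600 mg per kg). No aged Ttpa-/- mouse on normal diet, no wild-type mouse on supplemented diet and no young Ttpa-/- mouse was among the samples, so the null allele was compared with wild-type on 1 matched diet. The allele is lost throughout the body, so the groups do not separate loss of Ttpa in the brain from its loss in the liver.

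Iron reaches most cells bound to transferrin, which is made from Trf and is recognised at the cell surface by the transferrin receptor made from Tfrc. After endocytosis the metal is moved into the cytosol by the transporter DMT1, made from Slc11a2. Surplus iron is kept inside ferritin shells built from heavy (Fth1) and light (Ftl1) chains, and leaves the cell through ferroportin (Slc40a1) with the help of the ferroxidase ceruloplasmin (Cp). Hepcidin, the peptide hormone made from Hamp, drives ferroportin off the cell surface. The RNA-binding proteins made from Aco1 and Ireb2 act when cytosolic iron is low: they stabilise Tfrc mRNA and hold back the translation of ferritin mRNAs. In the brain Trf is made mainly by oligodendrocytes and by the choroid plexus, and a membrane-bound form of ceruloplasmin is found on astrocytes.

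Several genes were read by more than 1 probe, and the sequences show which stretch of the transcript each reading came from. They are printed as the array files hold them, with the first 30 bases of each probe except probes 2 and 3 of Tfrc, which are whole at 60 bases.
Tfrc probe 1: tgagcaagatcacattaacaaagactagtt
Tfrc probe 2: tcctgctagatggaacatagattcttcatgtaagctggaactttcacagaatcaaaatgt
Tfrc probe 3: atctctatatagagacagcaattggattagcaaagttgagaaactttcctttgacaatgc
Trf probe 1: tcttcgctgctgtgccttaccacatacaca
Trf probe 2: aaatacttaggagcggagtacatgcaatct
Slc11a2 probe 1: tgctttaatcccaaccagaaataatcatcc
Slc11a2 probe 2: gagactctgaggagcccttcaccacctact
Cp probe 1: tctgatgtctttgaccttttccctggaaca
Cp probe 2: gcttgcagtgtctatatgtactagagataa
None of these probes overlaps another. The array files place them on the mm9 build, with Tfrc probe 1 at chr16:32632255-32632314, probe 2 at chr16:32620470-32620529 and probe 3 at chr16:32624877-32625093, all on the plus strand. Probe 3 spans 217 bases of the genome with 60 bases of sequence, so its genomic match is split. On the Tfrc transcript the 3 probes start at bases 4288, 1228 and 1732. The Trf probes lie at chr9:103111207-103111266 and chr9:103112826-103112885 on the minus strand, the Slc11a2 probes at chr15:100218333-100218392 and chr15:100240516-100240575 on the minus strand, and the Cp probes at chr3:19889071-19889130 and chr3:19907511-19907570 on the plus strand. Slc11a2 probe 1 starts at base 2961 of its transcript and probe 2 at base 253, and Cp probe 2 was designed on another transcript record than Cp probe 1. The single probes lie at chr19:10059485-10059544 on the plus strand (Fth1), chr7:52713309-52713368 on the minus strand (Ftl1), chr1:45965255-45965314 on the minus strand (Slc40a1), chr4:40145780-40145839 on the plus strand (Aco1), chr9:54756566-54756625 on the plus strand (Ireb2) and chr7:31727490-31727549 on the minus strand (Hamp). An annotation that gives exons for this build was not used here.

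Values are log2 of a probe's processed signal over the 75th percentile of its array, so 0 is the level of that percentile. A probe's values can be compared across arrays, whereas values of different probes are not on 1 scale. A probe was called when its limma p, adjusted by the Benjamini-Hochberg method over all probes tested, was under 0.05 and its fold change was above 1.5. The 40 arrays had a 75th percentile of 365 to 925 and 51.4% to 61.4% of probes well above background, and arrays of 1 group correlated at 0.973 to 0.993. Each group lay on 1 of 5 slides and each slide held 2 groups. Slide and condition cannot be told apart except in the 4 comparisons made inside a slide, which are ageing in cortex, the supplemented Ttpa-/- group against the deficient wild-type group in cortex, the diet of wild-type mice in cerebellum and the diet of Ttpa-/- mice in cerebellum. The brighter Ttpa probe exceeded background on all 4 cerebellum arrays of every wild-type group, but on 0 (deficient) and 1 (supplemented) of those of Ttpa-/- mice, and on at most 1 cortex array of any group. Summed over their markers, cerebellar genes were at 500 to 702 in the cerebellum arrays and 8.65 to 11.7 in the cortex arrays, as the tissue labels say.

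Tfrc gave the most distinct pattern of the uptake genes in cerebellum, where all 3 probes fell with age by 1.86-fold to 2.52-fold. Probe 1 read 1.82, 1.65, 1.67 and 1.52 in young wild-type mice (replicates 1 to 4) and 0.66, 0.65, 0.75 and 0.66 in aged wild-type mice on normal diet. Every young array lay above every aged array. The young and aged cerebellum arrays lay on different slides, so age and slide cannot be told apart here. The fitted log2 change was -0.98 (SE 0.14, limma adjusted p = 8.88e-06). Probe 2 read 0.80, 0.31, 0.34 and -0.14 in young against -1.01, -0.98, -1.1 and -0.93 in aged mice, again with no overlap, for a log2 change of -1.33 (limma adjusted p = 6.68e-07). Probe 3, the dimmest of the 3 Tfrc probes, was above background on 4 of 4 young and 3 of 4 aged arrays. Its log2 change was -0.89 (limma adjusted p = 0.00855) and its groups did not overlap either. An exact permutation test on the 4 against 4 values of each probe gave p = 0.0286, the smallest that 70 arrangements can give. Probes 1 and 2 stayed called when any single array was left out, with ranges of -1.03 to -0.93 and -1.49 to -1.18, but probe 3 lost its call without replicate 1 of the young mice (-0.72, limma adjusted p = 0.0569). Probe 3 also lost it with normexp background correction, which brought the change to -0.36, and when only the compared groups entered the limma fit (adjusted p = 0.102), and it was not called by the methods' t-test after Benjamini-Hochberg adjustment. These are tissue homogenates, in which fewer cells of a type and less RNA per cell cannot be told apart.

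The 3 Tfrc probes were the whole of the called set among the members for ageing in cerebellum, 3 of 14 probes tested and all lower, where 5.03% of all probes tested were called and 1.04% were called lower. Over the 14 tested the median log2 change was -0.04, against -0.01 over all probes tested. Other cell markers moved in the same comparison. Of the 10 microglial markers 8 rose with age, and their summed level went from 86.6 to 94.4 in young to 113 to 129 in aged mice. Of 8 tested blood markers 5 rose and 1 fell, with summed levels of 21.7 to 35.2 in young and 43.4 to 283 in aged mice. None of the 10 oligodendrocyte markers was called. Of 8 astrocyte and 8 endothelial markers 1 each rose, none of 7 neuronal or 9 cerebellar markers was called, and 1 of 5 tested cortex markers rose. Among the 9 choroid plexus markers 2 fell, with a summed level of 8.93 to 250 in young and 6.30 to 7.27 in aged mice. The part of these cell types in the Tfrc difference was not tested.

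On the deficient diet, cerebellar Tfrc was lower in Ttpa-/- than in wild-type mice on all 3 probes. The wild-type and Ttpa-/- arrays lay on different slides, so genotype and slide cannot be told apart here. Probe 1 read 1.67, 1.30, 0.96 and 0.79 in wild-type mice and 0.46, 0.50, 0.56 and 0.10 in Ttpa-/- mice. All wild-type values were above all Ttpa-/- values, although the wild-type mice spread widely (SD 0.39, against 0.21 in Ttpa-/- mice). The wild-type values fell in order from replicate 1 to replicate 4, as did those of Cp probe 1 in the same group. What set these arrays apart was not tested. The log2 change of probe 1 was -0.77 (limma adjusted p = 0.000528, exact permutation p = 0.0286), and it stayed between -0.91 and -0.61 and called with any array left out. Probes 2 and 3 changed by -0.61 and -0.71 (limma adjusted p = 0.0145 and 0.0363), and their groups overlapped (exact permutation p = 0.0571 for each). The call of probe 2 was lost without replicate 1 of the Ttpa-/- mice (-0.48, limma adjusted p = 0.0693) or replicate 1 of the wild-type mice (-0.53, limma adjusted p = 0.0714). That of probe 3 was lost without replicate 1 or 4 of the Ttpa-/- mice (-0.47 and -0.74, limma adjusted p = 0.169 and 0.0521) or replicate 1, 2 or 3 of the wild-type mice (-0.63, -0.66 and -0.72, limma adjusted p = 0.127, 0.0941 and 0.0607). When only the compared groups entered the fit, none of the 3 was called, and probe 1 had a limma adjusted p of 0.108. Of the 14 member probes tested 3 were called, all lower and all Tfrc, beside 4.94% of all probes called and 1.92% called lower. Of all marker lists only the microglial one held a call, 1 of 10 higher in Ttpa-/- mice. No blood or oligodendrocyte marker was called, with blood levels of 56.7 to 179 in wild-type and 31.4 to 154 in Ttpa-/- mice.

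For diet, no cerebellar Tfrc difference met the call in either genotype. In wild-type mice the deficient diet went with higher Tfrc than normal diet on all 3 probes, by 0.50, 0.50 and 0.40 (limma adjusted p = 0.0418, 0.0792 and 0.319). Probe 1 passed the adjusted threshold at a 1.41-fold difference, under the 1.5-fold required, and probes 1 and 2 had groups that did not overlap (exact permutation p = 0.0286). In Ttpa-/- mice it was the supplemented diet that went with higher values. Probe 1 read 0.93, 1.0, 0.94 and 0.73 on the supplemented diet, above all 4 values on the deficient diet, and the differences of the 3 probes were 0.49, 0.47 and 0.66 (limma adjusted p = 0.101, 0.212 and 0.188, exact permutation p = 0.0286 for each). Both comparisons were made within a slide. Member probes called numbered 0 of 14 in each, beside 1.27% and 0.343% of all probes. Leaving out replicate 4 of the deficient wild-type cerebellum brought 4 member probes past the call in the wild-type comparison, with Tfrc probe 1 at 0.63 (limma adjusted p = 0.00964). Without replicate 3 of that group it was probe 2, at 0.60 (limma adjusted p = 0.0401).

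Against aged wild-type mice on normal diet, cerebellar Tfrc of Ttpa-/- mice met the call on neither diet. On the deficient diet the differences were -0.28 and -0.12 for probes 1 and 2 (limma adjusted p = 0.211 and 0.708), with probe 3 too dim to be tested. On the supplemented diet they were 0.22, 0.36 and 0.35 (limma adjusted p = 0.335, 0.156 and 0.323). No member probe was called in either comparison, of 13 and 14 tested, where 4.46% and 4.91% of all probes were. The supplemented Ttpa-/- mice and the deficient wild-type mice differed by -0.28 on probe 1 (limma adjusted p = 0.249), and again 0 of 14 member probes were called beside 3.50% of all probes. All these comparisons share arrays with those above, so they are not separate measurements of one group.

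In cortex the Tfrc levels are given as they stand. Probe 1 read 1.72, 1.48, 1.59 and 1.66 in young wild-type mice and 1.03, 1.24, 1.1 and 1.39 in aged wild-type mice on normal diet. Aged mice on the deficient diet read 2.08, 1.87, 1.68 and 1.36 when wild-type and 0.72, 1.03, 0.86 and 0.60 when Ttpa-/-. Supplemented Ttpa-/- mice read 1.52, 1.65, 1.60 and 1.34. The aged wild-type values lay below all young values, and the deficient Ttpa-/- group held the lowest cortical values, meeting the aged wild-type group on normal diet only at 1.03. Probe by probe, the aged minus young difference was -0.42, -0.71 and -0.76, deficient minus normal diet in wild-type mice was 0.56, 0.43 and 0.77, and Ttpa-/- minus wild-type on deficient diet was -0.95, -1.43 and -1.26. Supplemented minus deficient in Ttpa-/- mice was 0.73, 0.77 and 0.95. Supplemented Ttpa-/- minus aged wild-type on normal diet was 0.34, -0.23 and 0.45, the 1 within-region comparison of 14 in which the probes differed in sign. The cortical comparison open to a test, supplemented Ttpa-/- against deficient wild-type on 1 slide, gave -0.22, -0.66 and -0.32 (limma adjusted p = 0.675, 0.167 and 0.709), with no overlap between the groups on probe 2.

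**Figure D1:**
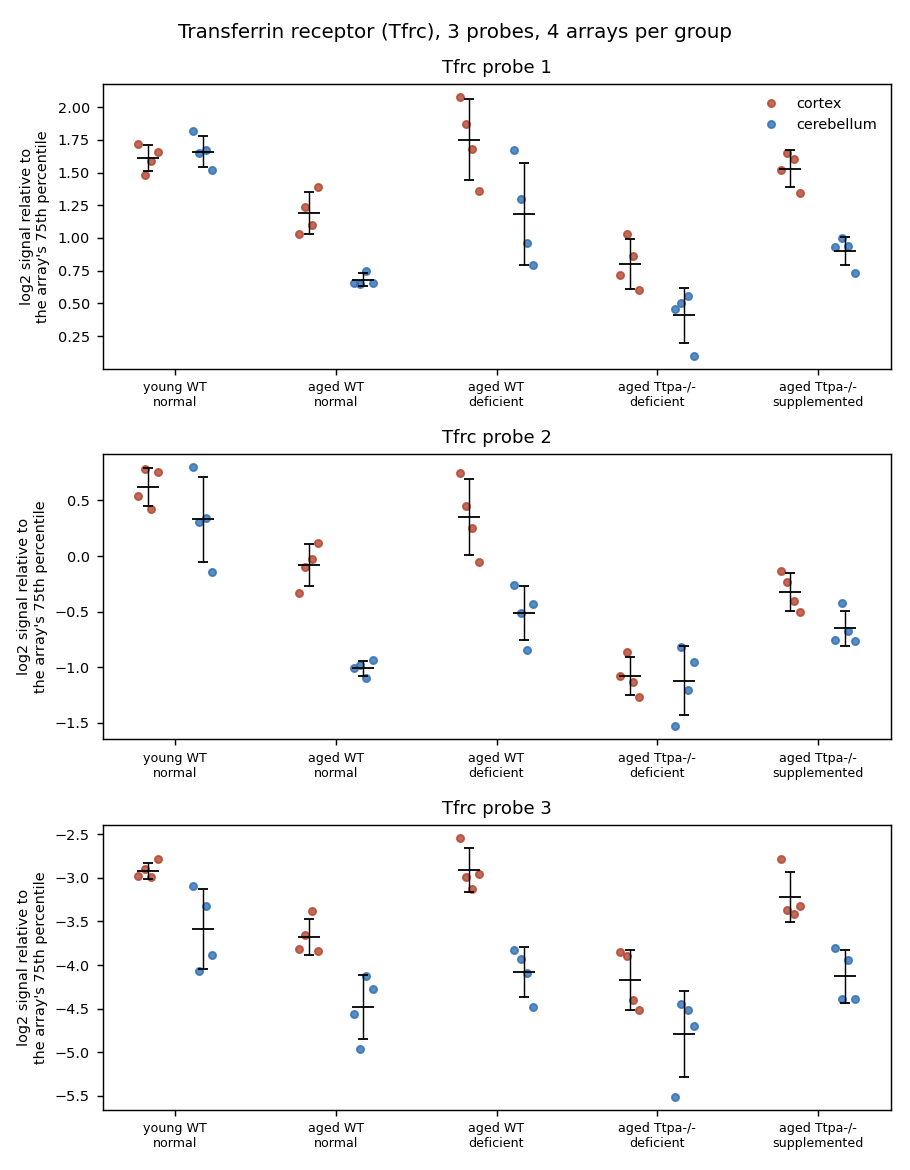
Level of Tfrc in the 10 groups, one panel per probe, on the y axis as log2 signal over the 75th percentile of the array, with a point per array and the mean ± SD of 4 arrays. On probe 1 the 4 aged wild-type cerebellum arrays on normal diet sit between 0.65 and 0.75, below the young range of 1.52 to 1.82, and the deficient Ttpa-/- cerebellum is the lowest group on every probe.

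The 3 probes followed each other across arrays. Pearson correlations between pairs of Tfrc probes were 0.843 to 0.858 over the 20 cortex arrays and 0.796 to 0.876 over the 20 cerebellum arrays. Their deviations from the group means correlated at 0.347 to 0.530 over the 40 arrays. In the order of the 10 group means the deficient Ttpa-/- cerebellum came last on all 3 probes, and the first was the deficient wild-type cortex on probes 1 and 3 and the young cortex on probe 2. Neighbours in that order were mostly indistinct: a gap exceeded the larger SD of the pair in 2 of 9 neighbouring pairs on probe 1, 3 of 9 on probe 2 and 2 of 9 on probe 3. Probe 1 was read from 9 to 10 spots per array, with a coefficient of variation among spots of 2.60% to 7.39%, beside group SDs of 0.05 to 0.39 on the log2 scale.

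In each of the 2 groups where the regions could be tested, 2 of the 3 Tfrc probes were called higher in cortex than in cerebellum. In deficient wild-type mice the cortex minus cerebellum difference was 0.56, 0.86 and 1.18 (limma adjusted p = 0.000934, 4.19e-05 and 3.85e-05), the first under the 1.5-fold limit. In supplemented Ttpa-/- mice it was 0.63, 0.33 and 0.91 (limma adjusted p = 0.00033, 0.0862 and 0.00098), and the call of probe 1 was lost without replicate 4 of the cerebellum (0.57). Given without a test, the difference was -0.05, 0.30 and 0.67 in young mice, where the probes differed in sign. It was 0.51, 0.92 and 0.81 in aged wild-type mice on normal diet, and 0.39, 0.04 and 0.62 in deficient Ttpa-/- mice. For the contrast of supplemented Ttpa-/- against deficient wild-type mice, the 2 regions differed by 0.07, -0.53 and -0.27 on the 3 probes, none of them past the threshold (limma adjusted p = 0.918, 0.245 and 0.749). Genes with probes above background on all 20 arrays of a region were ranked by the correlation of their array values with Tfrc probe 1. The first in cortex were Pars2 (Pearson r = 0.924), Mfsd4 (0.921), Nudt6 (0.918), Cdc42ep3 (0.907) and Gopc (0.901), of 13595 genes. In cerebellum they were Pabpn1 (0.893), Kif22 (0.893), Rcor3 (0.890), Fam203a (0.889) and 2010317E24Rik (0.885), of 13664. These are correlations over 20 arrays that share slides and groups, and no gene was among the first 5 in both regions. The cortex list draws on the cortical values by which Tfrc was chosen, so it is a description only.

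Trf, the carrier that Tfrc binds, separated the cortex groups by diet in Ttpa-/- mice. Probe 1 read 5.21, 5.73, 5.97 and 5.89 on the deficient diet and 6.56, 6.27, 6.29 and 6.5 on the supplemented diet. The groups did not overlap, and the log2 change was 0.70 (limma adjusted p = 0.0350, exact permutation p = 0.0286). Probe 2 gave 0.60 (limma adjusted p = 0.0946), and the mean of both probes 0.65 (limma adjusted p = 0.0573). The call of probe 1 was lost without replicate 1, 3 or 4 of the supplemented mice (0.65, 0.74 and 0.67, limma adjusted p = 0.0829, 0.0578 and 0.0773) or replicate 1 or 2 of the deficient mice (0.54 and 0.71, limma adjusted p = 0.179 and 0.0646). It was the 1 call among 11 member probes tested outside Tfrc, where 3.31% of all probes were called and 1.31% called higher.

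The same probe fell in deficient Ttpa-/- cortex against aged wild-type mice on normal diet, which read 6.48, 6.87, 6.88 and 5.36. Replicate 4 of that wild-type group lay far below the other three arrays and near the lowest Ttpa-/- value, so the groups overlapped (exact permutation p = 0.143). The log2 change was -0.70 (limma adjusted p = 0.0296), and -0.49 on probe 2 (limma adjusted p = 0.153), and -0.60 for the mean of both (limma adjusted p = 0.0698). Leaving that array out widened both, to -1.04 and -0.88, the second then called (limma adjusted p = 0.00224). The call of probe 1 was lost without replicate 1, 2 or 3 of the wild-type group (-0.67, -0.54 and -0.54, limma adjusted p = 0.0694, 0.134 and 0.125) or replicate 1 or 2 of the Ttpa-/- group (-0.53 and -0.71, limma adjusted p = 0.152 and 0.0552). It was 1 of 10 member probes tested, beside 4.75% of all probes called and 1.60% called lower.

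The reading of ageing in cortex also depended on that low array, and on the processing. Young mice read 5.74, 5.63, 5.55 and 5.70 on Trf probe 1, below 3 of the 4 aged values. With all arrays the aged minus young difference was 0.75 on probe 1 and 0.78 on probe 2 (limma adjusted p = 0.0564 and 0.0617), and without replicate 4 of the aged mice it was 1.09 and 1.17 (limma adjusted p = 0.000279 and 0.000193). With that array kept, probe 1 was called with quantile scaling (0.75, limma adjusted p = 0.0465). Both probes were called with normexp (0.77 and 0.82, limma adjusted p = 0.0424 and 0.0439) and with array weights (0.89 and 0.96, limma adjusted p = 0.0018 for each). In cerebellum the young values of 6.41 to 6.65 and the aged values of 6.52 to 6.64 overlapped. The difference between regions in the ageing effect was 0.73 and 0.78 (limma adjusted p = 0.347 for each), and 1.07 and 1.16 without the low array (limma adjusted p = 0.0218 and 0.0161). With array weights it was 0.90 and 0.98 (limma adjusted p = 0.0474 and 0.0432). The deficient diet in wild-type cortex likewise went from -0.67 and -0.59 (limma adjusted p = 0.150 and 0.239) to -1.01 and -0.97 without the low array (limma adjusted p = 0.00867 and 0.0110). With array weights the differences were -0.76 and -0.73 (limma adjusted p = 0.00441 and 0.00875). In wild-type cerebellum the deficient diet gave -0.50 and -0.64 (limma adjusted p = 0.197 and 0.119), with probe 2 called at -0.87 once replicate 4 of the deficient mice was left out (limma adjusted p = 0.0294).

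Levels of Trf moved with oligodendrocyte markers, which include myelin genes. Over the 20 arrays of each region, Trf probe 1 correlated with the mean log2 level of 10 such markers at r = 0.729 in cortex and 0.869 in cerebellum, and their deviations from group means correlated at 0.861 over 40 arrays. The low aged wild-type cortex array had the lowest marker mean of its group, 2.67 against 3.23 to 3.57. In cortex the median marker was 0.57 lower in deficient Ttpa-/- than in aged wild-type mice on normal diet (-0.57, 1 of 10 called lower) and 0.53 higher on the supplemented than on the deficient diet (3 of 10 called higher). Their summed level was 193 to 335 in the aged wild-type, 163 to 210 in the deficient Ttpa-/- and 237 to 310 in the supplemented Ttpa-/- cortex. For ageing in cortex no oligodendrocyte marker was called and their median was -0.02. For the wild-type diet in cerebellum 3 of 10 were called lower with a median of -0.50, and replicate 4 of the deficient mice had the highest marker mean of its group, 3.08 against 2.16 to 2.69. For the wild-type diet in cortex 0 of 10 were called with a median of -0.34. The part of oligodendrocyte content in the Trf differences was not tested.

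**Figure D2:**
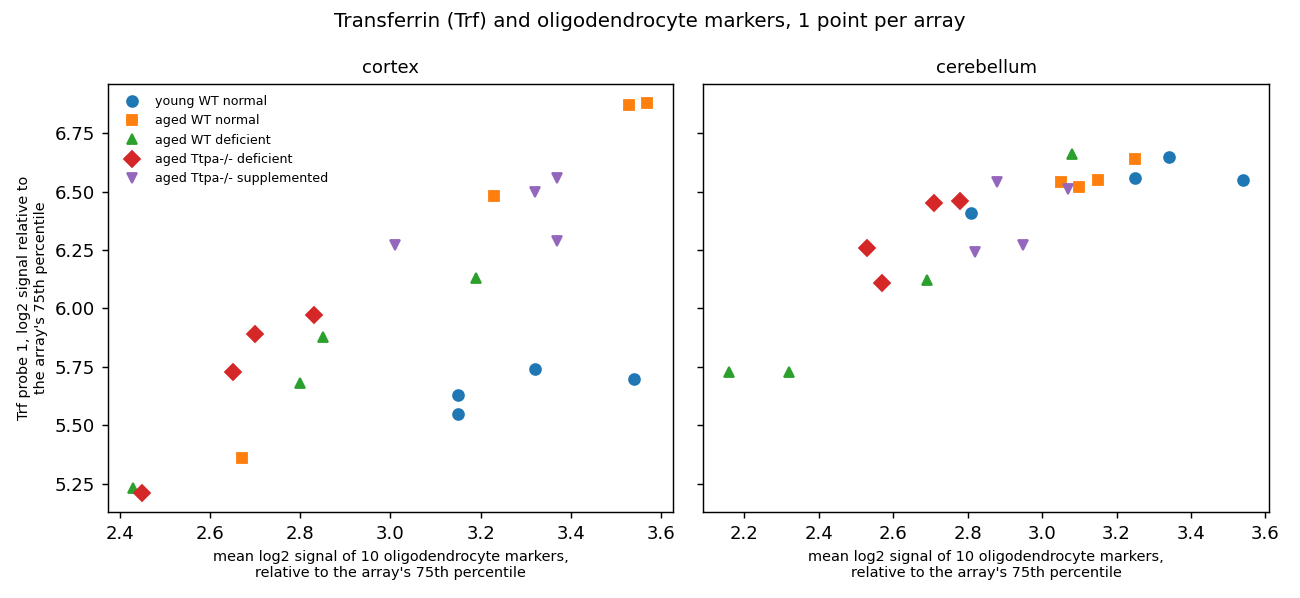
Level of Trf probe 1 on the y axis against the mean level of 10 oligodendrocyte markers on the x axis, both as log2 signal over the array's 75th percentile, with 1 point per array and 1 panel per region. Trf was higher on arrays with more marker signal (r = 0.729 in cortex and 0.869 in cerebellum), and the aged wild-type cortex array at 2.67 on the x axis is the one at 5.36 on the y axis.

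Between regions Trf was lower in cortex of young mice, by 0.89 and 1.02 on the 2 probes (-0.89 and -1.02, limma adjusted p = 0.00106 and 0.000514). It was called lower in deficient Ttpa-/- cortex on probe 1 (-0.62, limma adjusted p = 0.0176), while probe 2 gave -0.56 (limma adjusted p = 0.0441) under the 1.5-fold limit. The probe 1 call was lost without replicate 2 or 4 of the cerebellum (-0.57 for each) or replicate 1 of the cortex (-0.45, limma adjusted p = 0.0955). Deviations of the 2 Trf probes from their group means correlated at 0.968 over 40 arrays, the closest pair among the genes with several probes.

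Slc11a2 gave a different answer on each probe. Probe 1, near the end of its transcript, was lower in cortex than in cerebellum in all 5 groups with no overlap, by -0.58, -0.51, -0.81, -0.60 and -0.38 in young wild-type, aged wild-type on normal diet, wild-type on deficient diet, Ttpa-/- on deficient diet and Ttpa-/- on supplemented diet. All 5 passed the adjusted threshold (limma adjusted p = 5.35e-06, 4.84e-05, 1.28e-08, 3.4e-06 and 0.0012), and those of both deficient-diet groups also passed 1.5-fold. In deficient wild-type mice, for example, cortex read -1.55, -1.38, -1.55 and -1.25 and cerebellum -0.48, -0.78, -0.74 and -0.49. The call in deficient Ttpa-/- mice fell under the fold limit without replicate 1 or 3 of the cerebellum (-0.58 and -0.53) or replicate 2 or 3 of the cortex (-0.58 and -0.54). Probe 2, near the start of the transcript, gave 0.04, 0.17, 0.18, 0.48 and 0.27 for the same regional differences. Of these 0.48, in deficient Ttpa-/- mice, passed the adjusted threshold (limma adjusted p = 0.00481) at less than 1.5-fold, with cortex above cerebellum. Those regions did not overlap but nearly touched, at -3.07603 (lowest cortex) and -3.078 (highest cerebellum). Deviations of the 2 probes correlated at 0.0737 over the 40 arrays and their signs matched in 8 of 14 within-region comparisons. With the mean of both probes the regional differences of the deficient wild-type and deficient Ttpa-/- mice were -0.31 and -0.06 and no longer called. Age, genotype and diet brought no call on either probe.

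Neither ferritin chain met the call within a region. Ftl1, the light chain, read 6.28, 6.36, 6.22 and 6.56 in young cortex and 6.57, 6.67, 6.79 and 6.75 in aged wild-type cortex on normal diet. In cerebellum it read 6.28, 6.56, 6.38 and 6.39 in young and 6.84, 6.81, 6.75 and 7.04 in aged mice. No aged value reached down to a young one in either region, and the differences of 0.34 and 0.46 passed the adjusted threshold (limma adjusted p = 0.0215 and 0.000441) but not the fold limit. Fth1, the heavy chain with ferroxidase activity, differed by 0.10 in cortex (limma adjusted p = 0.709) and by 0.29 in cerebellum (limma adjusted p = 0.0317) in the same comparison. Among the 4 aged groups Ftl1 stayed between 6.57 and 7.08 and Fth1 between 8.44 and 8.66 in cortex and 7.81 and 8.39 in cerebellum, and no comparison of aged groups within a region passed the adjusted threshold for either.

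Fth1 was higher in cortex in every group, with no overlap. The cortex minus cerebellum difference was 0.58, 0.38, 0.46, 0.43 and 0.34 in the order of groups used for Slc11a2 (limma adjusted p = 1.23e-06, 0.000439, 4.03e-05, 9.49e-05 and 0.00124). The largest of these, in young mice, is just under 1.5-fold. Young cortex read 8.39 to 8.52 and young cerebellum 7.79 to 7.95, so that the regions stood apart by several times the SD within a group.

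**Figure D3:**
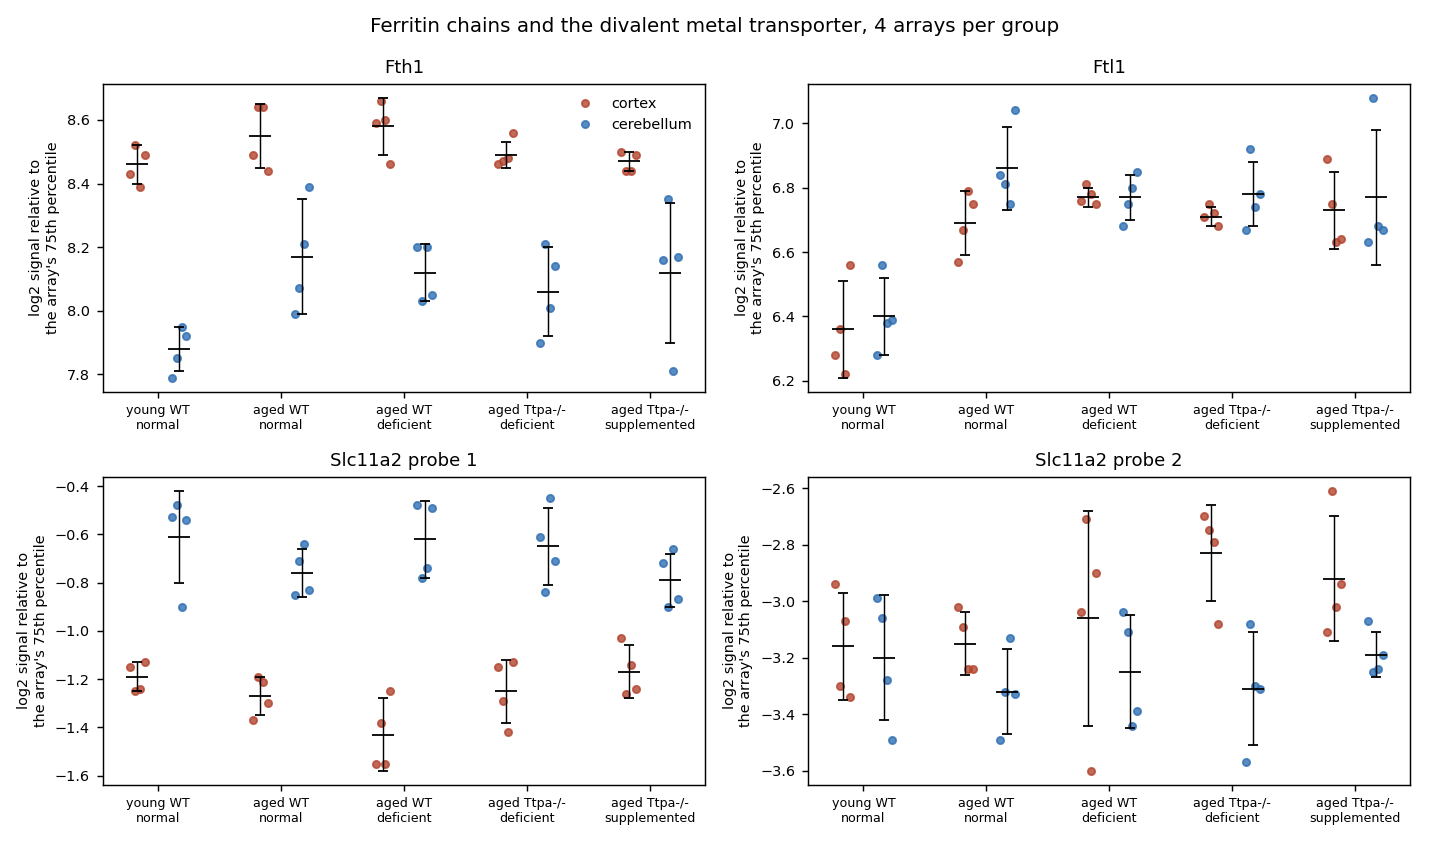
Levels of Fth1, Ftl1 and the 2 Slc11a2 probes in the 10 groups, one panel per probe, on the y axis as log2 signal over the array's 75th percentile, with a point per array and the mean ± SD of 4 arrays. Fth1 sits between 8.39 and 8.66 in cortex and between 7.79 and 8.39 in cerebellum, and Slc11a2 probe 1 is lower in cortex than in cerebellum in each group. Slc11a2 probe 2 overlaps between regions in every group except deficient Ttpa-/- mice, where the regions nearly touch.

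Cp probe 1 and Slc40a1 were spread widely among wild-type mice on the deficient diet. Cp probe 1 read 1.39, 0.68, 0.35 and -0.09 in their cortex and 1.64, 1.17, 0.78 and 0.39 in their cerebellum, whereas aged wild-type mice on normal diet read -0.26, -0.10, -0.05 and 0.11 in cortex and 0.57, 0.44, 0.36 and 0.76 in cerebellum. The deficient group thus reached higher but overlapped the normal-diet group in both regions. The differences were 0.66 and 0.46 (limma adjusted p = 0.123 and 0.192), and without replicate 4 of the deficient mice they were 0.88 and 0.67 (limma adjusted p = 0.0124 and 0.0457).

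Slc40a1, the exporter itself, ran the other way. In cortex the deficient wild-type mice read -1.62, -1.56, -1.16 and -0.48 and the normal-diet mice -0.52, -0.52, -0.47 and -0.91. In cerebellum they read -2.37, -1.55, -1.63 and -1.20 against -0.56, -1.21, -0.99 and -1.38. Replicate 4 of the deficient mice was the one closest to the normal-diet values in both regions. The differences of -0.60 and -0.65 did not pass (limma adjusted p = 0.160 and 0.0655) and became -0.84 and -0.82 without that replicate (limma adjusted p = 0.0161 and 0.0222). The same replicate had the highest mean of oligodendrocyte markers among the deficient mice, 3.19 against 2.43 to 2.85 in cortex and 3.08 against 2.16 to 2.69 in cerebellum, and deviations of Slc40a1 and Trf probe 1 from group means correlated at 0.438 over 40 arrays. The part of these markers in the Slc40a1 values was not tested. Group means of deficient and supplemented Ttpa-/- mice were -1.10 and -0.95 in cortex and -1.36 and -1.33 in cerebellum. These also lay below normal-diet wild-type mice (-0.60 and -1.03), without a call. With array weights Slc40a1 was called lower in deficient wild-type cortex (-0.81) and cerebellum (-0.72) and in deficient Ttpa-/- cortex (-0.64), each against normal-diet wild-type mice (limma adjusted p = 0.00236, 0.0213 and 0.00373). Over all arrays Cp probe 1 and Slc40a1 correlated at r = -0.817 in cortex and -0.779 in cerebellum (20 arrays each), and their deviations from group means at -0.744 (40 arrays).

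The transcript of Lcn2, no member of the set, which encodes an innate immune protein that binds iron-carrying siderophores, spread in the same mice. It read 3.05, 1.53, 0.59 and -0.77 in deficient wild-type cortex and 3.14, 2.27, 0.08 and -1.47 in their cerebellum, against -1.62 to 0.34 in the other aged groups. Replicate 1 was highest and replicate 4 lowest in both regions for Lcn2, Cp probe 1 and Tfrc probe 1. Nothing in the labels states that equal numbers mark 1 mouse. Tfrc probe 1 read 2.08, 1.87, 1.68 and 1.36 in their cortex and 1.67, 1.30, 0.96 and 0.79 in their cerebellum. On Tfrc probes 2 and 3 replicate 1 was also highest in both regions. Replicate 4 was lowest in cortex alone on probe 2 and in cerebellum alone on probe 3. What set these arrays apart was not tested.

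On the deficient diet Cp probe 1 fell in Ttpa-/- relative to wild-type cortex, where Ttpa-/- mice read -0.15, 0.06, 0.05 and -0.11. The log2 change was -0.62 (limma adjusted p = 0.0452) and the groups overlapped (exact permutation p = 0.0857). Of the 8 arrays only the removal of replicate 4 of the wild-type mice kept the call (-0.84). Without replicates 1, 2 and 3 of the wild-type mice in turn it was -0.35, -0.59 and -0.70 (limma adjusted p = 0.268, 0.10 and 0.0533), and without replicates 1 to 4 of the Ttpa-/- mice it was -0.58, -0.65, -0.65 and -0.60 (limma adjusted p = 0.125, 0.0651, 0.0784 and 0.0678). This was the 1 call of 11 member probes tested outside Tfrc, beside 3.07% of all probes and 1.53% called lower. In cerebellum the same difference was -0.54 (limma adjusted p = 0.081), and -0.75 without replicate 4 of the wild-type mice (limma adjusted p = 0.0143).

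With age Cp probe 1 was higher in both regions without overlap, by 0.38 in cortex and 0.55 in cerebellum, and neither passed (limma adjusted p = 0.408 and 0.0849). With the mean of both Cp probes the cortical difference was 0.78 and called (limma adjusted p = 0.0227). Cortex was below cerebellum in aged wild-type mice on normal diet (-0.61, limma adjusted p = 0.0135), a call lost without replicate 4 of the cerebellum (-0.53, limma adjusted p = 0.0472) or replicate 1 of the cortex (-0.54). Cp probe 2 was near background in several cortex groups, above it on 0 of 4 young, 2 of 4 normal-diet aged wild-type and 3 of 4 deficient Ttpa-/- arrays, but on 4 of 4 in the deficient wild-type and supplemented Ttpa-/- groups. It was called lower in young cortex than in young cerebellum, at least 1.67-fold by the processed signal (limma adjusted p = 0.0008), and lower by 1.05 in deficient Ttpa-/- mice (-1.05, limma adjusted p = 0.00471). With normexp background correction both differences shrank to -0.20 and neither was called (limma adjusted p = 0.115 and 0.125), so the 1.67-fold bound does not hold under that correction. Summed choroid plexus markers, a tissue that makes both Cp and Trf, ranged from 3.05 to 197 among the cortex arrays and from 5.94 to 250 among the cerebellum arrays, and their part in these values was not tested.

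**Figure D4:**
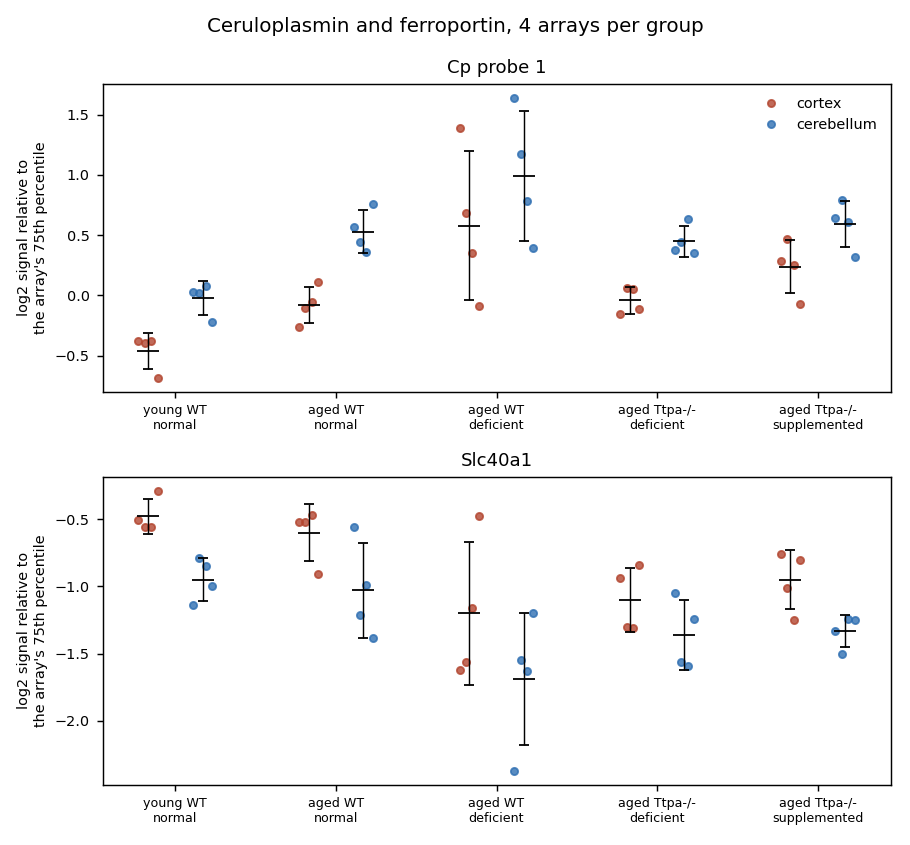
Levels of Cp probe 1 and Slc40a1 in the 10 groups, on the y axis as log2 signal over the array's 75th percentile, with a point per array and the mean ± SD of 4 arrays. Wild-type mice on the deficient diet have the widest spread for Cp, from -0.09 to 1.39 in cortex and 0.39 to 1.64 in cerebellum, and the lowest Slc40a1 values, down to -1.62 and -2.37.

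With all arrays and no block the regulators brought no call within a region. Hamp was not well above background on any of the 40 arrays. Ireb2 read -3.02, -3.00, -3.42 and -2.93 in deficient wild-type cortex and -4.14, -3.39, -3.45 and -3.80 in deficient Ttpa-/- cortex, a difference of -0.60 (limma adjusted p = 0.0590) with a single pair of values out of order, and it differed by -0.49 in cerebellum (limma adjusted p = 0.129). The cortical difference was called with the replicate number as a block (limma adjusted p = 0.0354) and without replicate 2 of the Ttpa-/- mice (-0.71, limma adjusted p = 0.0493). Aco1, whose protein is also the cytosolic aconitase, differed in the opposite sense in the same comparison, by 0.33 in cortex and 0.29 in cerebellum (limma adjusted p = 0.0623 and 0.103). Its cortical values were -2.96, -2.68, -2.87 and -2.59 in wild-type and -2.39, -2.33, -2.60 and -2.47 in Ttpa-/- mice. On the supplemented diet Ttpa-/- cortex read 0.26 lower for Aco1 than on the deficient diet (-0.26, limma adjusted p = 0.139). These groups did not overlap but nearly touched, at -2.6026 (lowest deficient) and -2.60415 (highest supplemented). With age in cortex Aco1 was also lower without overlap, from -2.41 to -2.25 in young to -2.66 to -2.48 in aged wild-type mice (limma adjusted p = 0.298).

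Over the whole set few probes met the call within a region, and each of those calls came from a comparison between slides. The 4 comparisons made inside a slide held 0 calls, with Tfrc not counted for ageing in cortex. In cortex 0 of 10 member probes outside Tfrc were called for ageing, 0 of 11 for the deficient diet in wild-type mice, 0 of 11 for supplemented Ttpa-/- against wild-type mice on normal diet and, with Tfrc, 0 of 14 for supplemented Ttpa-/- against deficient wild-type mice. The shares of all probes called were 2.09%, 0.223%, 0.0920% and 0.0316%. In limma's unadjusted test 4, 4, 0 and 5 of those member probes had p under 0.05, and the methods' t-test after Benjamini-Hochberg adjustment called 0 in each. The share of all probes with an unadjusted p under 0.05 was not computed. The unadjusted counts here and below therefore have no background beside them, and the shares of calls are at another threshold. In the cerebellum comparisons without a call (deficient diet in wild-type, deficient and supplemented Ttpa-/- against wild-type on normal diet, diet in Ttpa-/-, supplemented Ttpa-/- against deficient wild-type), 6, 1, 1, 4 and 1 member probes had an unadjusted limma p under 0.05, and the methods' t-test after adjustment called 0. The test of a difference between regions called no member in any of the 7 contrasts, with 1.46%, 0.0126%, 3.38%, 0.957%, 0.0441%, 0.802% and 2.87% of all probes called for ageing, wild-type diet, deficient Ttpa-/- against wild-type on normal diet, supplemented Ttpa-/- against wild-type on normal diet, Ttpa-/- diet, genotype on deficient diet and supplemented Ttpa-/- against deficient wild-type. Unadjusted limma p was under 0.05 for 2, 1, 0, 0, 0, 0 and 2 member probes in that order. Groups did not overlap for 6 of 14 member probes for ageing in cerebellum (the 3 Tfrc probes, Ftl1, Fth1 and Cp probe 1), beside 19.1% of all probes, and for 3 of 10 for ageing in cortex (Ftl1, Aco1 and Cp probe 1), beside 14.0%. In the other cortex comparisons they did not overlap for 3 of 11 member probes for the Ttpa-/- diet (19.0% of all probes), 1 of 11 for genotype on deficient diet (17.2%), 3 of 14 for supplemented Ttpa-/- against deficient wild-type (5.56%), and 0 for the wild-type diet (10%) and for deficient and supplemented Ttpa-/- against wild-type on normal diet (23.4% and 6.88%). In cerebellum these counts were 2 of 14 for the wild-type diet (16.8%), 3 of 13 and 1 of 14 for deficient and supplemented Ttpa-/- against wild-type on normal diet (17.0% and 21.3%), 3 of 14 for the Ttpa-/- diet (5.33%), 1 of 14 for genotype (13.5%) and 0 for supplemented Ttpa-/- against deficient wild-type (13.2%).

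Regional calls were common on the whole array, so those of members stand against a high background. Cortex and cerebellum differed on 38.4% of probes in young wild-type, 33.6% in aged wild-type on normal diet, 43.3% in deficient wild-type, 41.9% in deficient Ttpa-/- and 37.1% in supplemented Ttpa-/- mice. Called member probes were 3 of 11, 1 of 11, 3 of 14, 3 of 11 and 2 of 14, shares below those of the array. Tfrc is not counted in the young, normal-diet and deficient Ttpa-/- comparisons, where all 7 calls (Trf, Slc11a2 and Cp) were lower in cortex, as were 19.3%, 17.8% and 21.3% of all probes. In deficient wild-type mice 2 member probes were higher and 1 lower (20.1% and 23.2% of all probes), and in supplemented Ttpa-/- mice 2 were higher (17.3%). Groups of the 2 regions did not overlap for 7, 3, 4, 7 and 4 member probes in the order above, beside 58.1%, 56.4%, 59.5%, 53.9% and 53.2% of all probes.

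**Figure D5:**
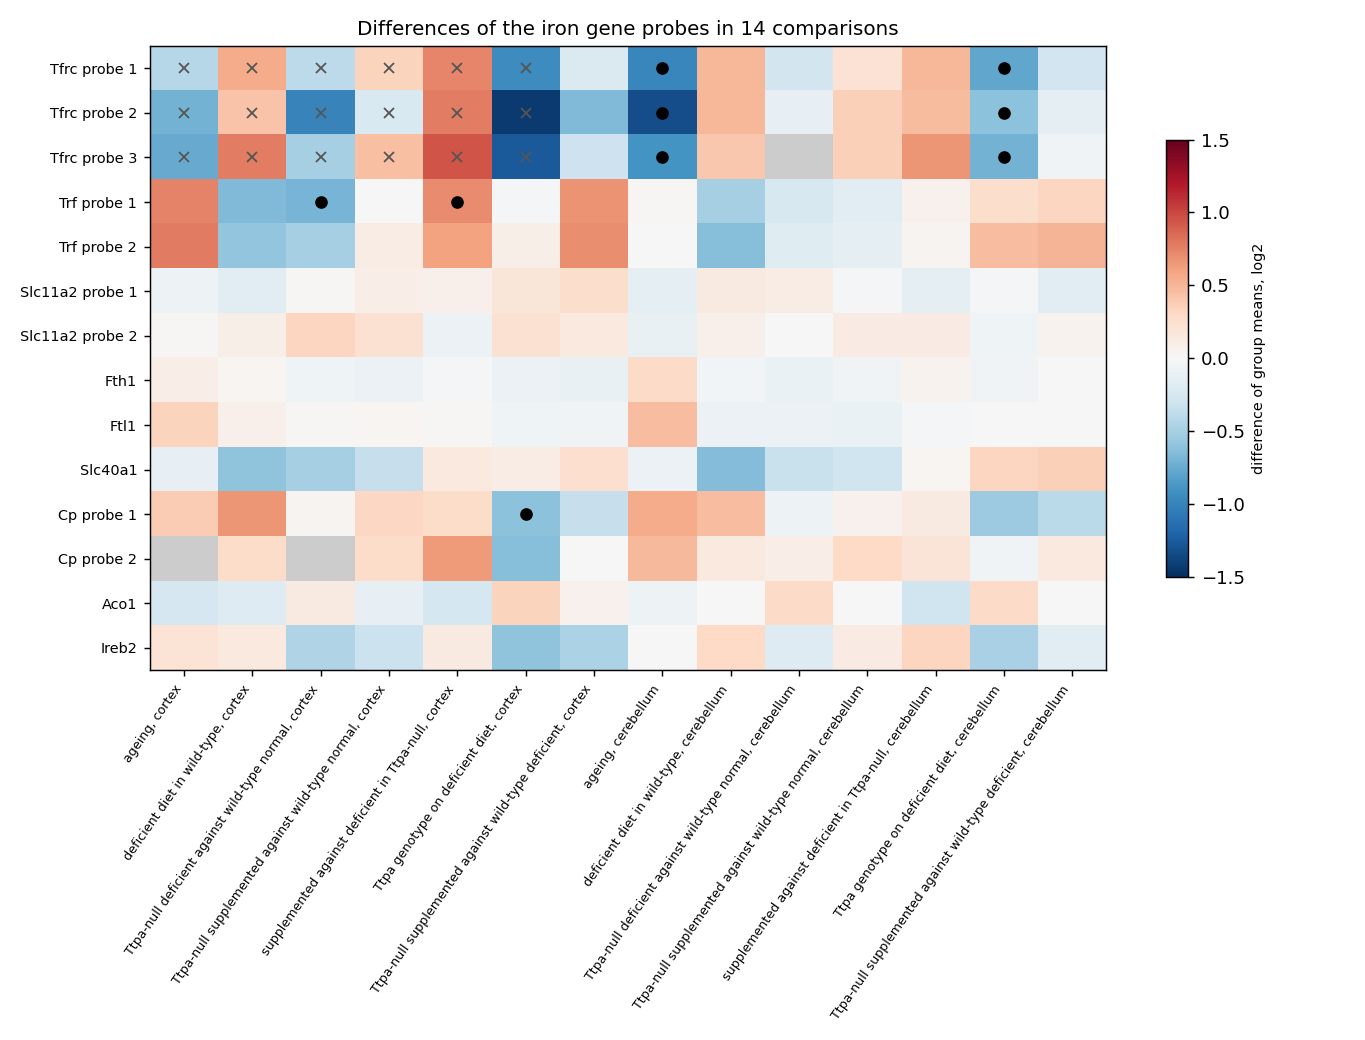
Log2 differences of 14 member probes (y axis) in the 14 within-region comparisons (x axis), by colour from lower (blue) to higher (red). Black dots mark calls (adjusted p under 0.05 and over 1.5-fold), crosses mark cortical Tfrc differences that were not tested, and grey marks probes too dim to test, so that the 3 dots for cerebellar ageing and the 3 for cerebellar genotype all stand on Tfrc.

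Beyond the 10 members, 56 further genes of iron and haem handling were on the array. Within a region at most 4 of them were called in any comparison. With age Hmox1, the haem-degrading oxygenase that releases iron, rose in both regions, reading -0.62 to -0.40 in young and -0.18 to 0.32 in aged cortex, and -0.74 to -0.63 in young and -0.03 to 0.18 in aged cerebellum. Its log2 changes were 0.68 and 0.76 (limma adjusted p = 0.000425 and 2.29e-05). For ageing in cortex 4 of 10 microglial, 1 of 8 astrocyte and 1 of 6 tested blood markers were called, all higher, and their part in the changes of Hmox1 and Ftl1 was not tested. Hmox1 was the 1 call of 46 tested in cortex, beside 2.09% of all probes called. In cerebellum it came with Lcn2 (2.07), the haemoglobin scavenger Hp (1.73) and Alas2 (2.67), the haem synthesis enzyme of red cell precursors. Together they were 4 of 49 tested, all higher, beside 5.03% of all probes called in either direction. Alas2 is itself a marker of blood, whose levels are given above for that comparison. On the deficient diet Lcn2 fell in Ttpa-/- relative to wild-type cortex (-2.06, limma adjusted p = 0.0340) and Hp in cerebellum (-1.92, limma adjusted p = 0.0101). Both wild-type groups were spread widely, with Hp at -1.53, 1.12, -2.05 and -2.08 in cerebellum. Mfi2, which encodes the iron-binding membrane protein melanotransferrin, was lower in deficient Ttpa-/- cortex than in wild-type cortex on normal diet (-0.59, limma adjusted p = 0.0109) and higher on the supplemented than on the deficient diet (0.69, limma adjusted p = 0.00538). It read -2.30, -2.87, -2.88 and -2.64 on the deficient diet and -2.24, -1.85, -1.73 and -2.13 on the supplemented diet, and the groups did not overlap.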

How the data were processed

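The 10 genes, the marker lists and the tests were chosen with earlier results of these data known. RNA of cortex and cerebellum was hybridised to 1-colour Agilent mouse arrays, 4 mice per group. The authors deposited scanner tables made with Feature Extraction (10.7.3.1 in the file headers, 10.1.1.1 in the submitters' processing notes), whose processed signal is an intensity after background subtraction. The authors also deposited processed log2 values, which matched the scaled signals centred per probe (median absolute difference 0.000915) and served as an alternative. The authors standardised by global normalization and required a fold change above 1.5. Here spots of a probe were averaged after control and outlier spots were left out (55589 of 55681 probes kept), each array was divided by its 75th percentile of processed signal, and log2 was taken. A probe was tested when it was well above background (on a 0.5 share of its spots or more) on all 4 arrays of at least 1 compared group. One limma fit (limma 3.58.1, R 4.3.3, data.table, version 1.17.8) over all 10 groups gave each comparison, with Benjamini-Hochberg adjustment over all probes tested. A call needed more than a 1.5-fold difference besides an adjusted p under 0.05. Exact permutation tests are two-sided over 70 arrangements. Steps were tested on simulated data. Figures used Python 3.11.15 and matplotlib 3.10.9.

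The text names all 10 members, the brightest probe of a gene first, other iron genes of a fixed list of 57 where called (56 found on the array by symbol or RefSeq synonym), and the 5 genes most like Tfrc in each region. One further iron gene called between regions is not reported here. The marker lists held 10 oligodendrocyte, 10 microglial, 8 astrocyte, 9 choroid plexus, 8 endothelial, 9 blood, 7 neuronal, 6 cortex and 9 cerebellum genes on the array. All sample columns were used, so 0 were set aside. The number of arrays limits the precision. Each limma p sets a group difference against the spread among arrays within groups, shared over the 10 groups. Slide effects between groups are not part of that spread, and no mice beyond these were measured.

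Replicate numbers recur in all groups, and nothing states what they share. Deviations of same-numbered arrays correlated at -0.446 to 0.664. All 4 pairs exceeded 0.1 in 1 of the 2-group comparisons, cortex against cerebellum in deficient Ttpa-/- mice (lowest 0.175), where a fit with the number as a block, added after seeing the data, called 3 member probes, as without it. Alternatives were normexp background correction, quantile and median scaling, the authors' log2 values, the mean over a gene's probes in place of its brightest, array weights, the compared groups alone, no filter, no fold threshold, the methods' t-test, a replicate block and each array left out. A slide block could not be fitted, since each group lies on 1 slide.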

Additional observations from a re-analysis of the deposited data

Results flagged for a closer look

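In 6 of the 120 combinations of a member probe and a group of 4 arrays that were looked at, 1 array stood far from the other three by Dixon's criterion, and chance alone marks about 1 in 20 groups. Cp probe 1 read -0.68 on replicate 4 of young wild-type cortex, below the -0.39 to -0.38 of the other arrays. Slc40a1 read -0.91 on replicate 4 of aged wild-type cortex on normal diet, where the others read -0.52 to -0.47. That array was also the lowest of its group for Trf. Slc11a2 probe 1 read -0.90 on replicate 3 of young wild-type cerebellum, against -0.54 to -0.48. Ftl1 read 7.08 on replicate 2 of supplemented Ttpa-/- cerebellum, against 6.63 to 6.68. For Tfrc, probe 1 read 0.75 on replicate 3 of aged wild-type cerebellum on normal diet, against 0.65 to 0.66, a gap of little size in a tight group, and probe 3 read -2.79 on replicate 1 of supplemented Ttpa-/- cortex, against -3.41 to -3.32.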

How the results depend on the processing

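No called difference changed sign under any alternative run. The numbers below are counts of member probes called, with the reported count in parentheses. Shares of all probes called were computed for the reported fit alone. Counts under an alternative or with an array left out therefore have no background beside them, and a shift over the whole array cannot be told apart from one of the members. With array weights, counts were 3 (1) for deficient Ttpa-/- against wild-type on normal diet in cortex, 1 (0) for supplemented Ttpa-/- against deficient wild-type in cortex, 2 (0) for ageing in cortex, 2 (0) and 4 (0) for the wild-type diet in cerebellum and cortex, and 2 (0) for the region difference of ageing. With the compared groups alone, and with the methods' t-test after Benjamini-Hochberg adjustment, 0 were called for genotype on deficient diet in cerebellum (3) and cortex (1), for deficient Ttpa-/- against wild-type in cortex (1) and for the Ttpa-/- diet in cortex (1). The unadjusted t-test gave 2 (1) for genotype, 0 (1) for deficient Ttpa-/- against wild-type and 2 (1) for the Ttpa-/- diet in cortex, 3 (0) for supplemented Ttpa-/- against deficient wild-type in cortex and 1 (0) for the wild-type diet in cerebellum. Median scaling, which shifted the median of all probes by -0.285 to 0.288, and by over 0.1 in 9 comparisons, gave 1 (3) for genotype in cerebellum, 0 (1) for genotype, deficient Ttpa-/- against wild-type and the Ttpa-/- diet in cortex, 1 (0) for the wild-type diet in cerebellum, and 1 (3) and 5 (3) for the regions of deficient Ttpa-/- and wild-type mice. With no filter, 0 (1) were called for genotype and for the Ttpa-/- diet in cortex, 1 (0) for ageing in cortex and 2 (1) for the regions of aged wild-type mice. With no fold threshold, counts rose to 5 (3) for ageing in cerebellum, 1 (0) for ageing in cortex, 1 (0) for the wild-type diet in cerebellum, and 5 (3), 3 (1), 6 (3), 7 (3) and 5 (2) for the regions of young, normal-diet, deficient wild-type, deficient Ttpa-/- and supplemented Ttpa-/- mice. Normexp gave 1 (3) for genotype in cerebellum, 0 (1) for genotype in cortex, 2 (0) for ageing in cortex, and 1 (3), 1 (2) and 0 (1) for the regions of deficient Ttpa-/-, supplemented Ttpa-/- and aged wild-type mice. Quantile scaling gave 0 (1) for deficient Ttpa-/- against wild-type in cortex, 1 (0) for ageing in cortex and 1 (0) for the wild-type diet in cerebellum. The replicate block changed 1 count, genotype in cortex, to 2 (1), adding Ireb2 at -0.60 (limma adjusted p = 0.0354), and with the authors' log2 values no count changed. With the mean over a gene's probes, Trf lost its cortex calls for the Ttpa-/- diet (0.65, limma adjusted p = 0.0573) and against wild-type mice on normal diet (-0.60, limma adjusted p = 0.0698), Slc11a2 lost both regional calls, and Cp was called for ageing in cortex (0.78, limma adjusted p = 0.0227) and between regions in young (-0.86) and deficient Ttpa-/- mice (-0.77). The cause of these shifts was not tested.

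Leaving out each array in turn gave 0 to 2 calls for ageing, for the wild-type diet and for deficient Ttpa-/- against wild-type in cortex and for the region difference of ageing. It gave 0 to 1 for genotype, for supplemented Ttpa-/- against deficient wild-type and for the Ttpa-/- diet in cortex. In cerebellum it gave 2 to 3 for ageing, 0 to 4 for the wild-type diet and 1 to 4 for genotype. For regions it gave 3 to 5 in young, 0 to 2 in normal-diet, 3 to 5 in deficient wild-type, 2 to 3 in deficient Ttpa-/- and 1 to 3 in supplemented Ttpa-/- mice. Tfrc probe 3 and Cp probe 2 were not above background on every array.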

Other observations

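Calls between regions among the further iron genes covered smaller shares than on the whole array. In all 5 groups the cortex was higher for Tfr2 (the second transferrin receptor, best known from liver), Cybrd1 (a ferric reductase), Exoc6 (a trafficking protein of the transferrin cycle), Bmp2 and Slc22a17 (a receptor for lipocalin-2), and lower for Steap2 (a metalloreductase) and Flvcr1 (a haem exporter). Steap2 differed most, by -2.87 in young wild-type and -2.44 in supplemented Ttpa-/- mice. Tfr2 differed by 1.77 in young mice and 1.37 in deficient wild-type mice. In deficient Ttpa-/- mice 7 of 50 tested genes were higher and 7 lower in cortex, where 41.9% of all probes were called, and in young mice 7 of 47 were higher and 4 lower, where 38.4% were. Calls in fewer than 5 groups included lower levels in cortex for Alas2, Ltf, Ftmt, Slc39a8, Heph, Hfe and Mfi2, from -3.39 (Ltf, aged wild-type mice on normal diet) to -0.61 (Hfe, supplemented Ttpa-/- mice), and higher levels for Neo1, Slc25a37, Hpx, Bmp6 and Steap1, from 0.59 (Neo1) to 2.57 (Steap1), both in supplemented Ttpa-/- mice.

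Ftmt, which encodes mitochondrial ferritin, was higher in deficient Ttpa-/- than in aged wild-type cerebellum (0.97, limma adjusted p = 0.0399). Bmp2 was lower in supplemented Ttpa-/- than in aged wild-type cerebellum on normal diet (-1.03, limma adjusted p = 0.00353). The Ftmt probe was above background on 4 of 4 deficient Ttpa-/- and 2 of 4 aged wild-type arrays in cerebellum and on 0 of 4 arrays of every cortex group. The genotype difference of Mfi2 on the deficient diet was not the same in both regions (region difference -0.94, limma adjusted p = 0.0387). Each was the single call among the further iron genes in its comparison, beside 4.46% (Ftmt), 4.91% (Bmp2) and 0.802% (Mfi2) of all probes called.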
